A study of Mus musculus with 12 samples.

Results

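The comparison set 2 populations sorted with the same surface gate, but from different tissues and genotypes, against each other: CD8aa T cells from the spleen of LRF knockout (KO) mice, and CD8aa intraepithelial lymphocytes (IELs), the T cells of the gut lining, of control mice. It takes 6 of the 12 RNA sequencing libraries in the series, 3 in each group, and all 48663 gene rows of the count table, of which 14875 passed the filter on low counts. Both groups were sorted as CD45+TCRb+CD4-CD8a+CD8b- cells from mice on the C57BL/6 background, and all mice carried the floxed allele lrf fl/fl. The KO mice were Cd4 Cre+, with a recombinase that the Cd4 promoter switches on in developing T cells, and the controls were Cd4 Cre-. The other 6 libraries came from thymic IEL precursors (IELp) of the same KO and control genotypes and are used here only beside the main comparison. These were sorted from thymus as TCRb+CD4-CD8a- cells that were also CD122+, H-2Kb+, CD5hi, PD-1hi and CD44-. The series asks what LRF does in the CD8aa IEL lineage and its precursors. Tissue and genotype differ together between spleen and gut libraries, so no difference below can be given to either alone.

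CD8aa IELs carry an αα homodimer of CD8 in place of the αβ heterodimer of conventional killer T cells. Those with an αβ T cell receptor arise in the thymus from precursors that meet self antigen, leave, and settle between the epithelial cells of the small intestine. There they hold on to E-cadherin through the integrin αEβ7, keep large stores of granzymes ready, and are known for a partly activated but restrained state. T cells of the spleen circulate instead: CCR7 helps them enter lymph nodes, and the sphingosine receptor S1PR1 lets them leave. LRF, the product of Zbtb7a, is a zinc finger transcription factor of the ZBTB family, known for its part in the choice between the CD4 and CD8 lineages.

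Each library held between 13432598 and 19947734 counts over genes, and levels are given in CPM, a gene's counts scaled to the same total in every library, with the libraries in the order of replicates 1, 2 and 3. A fold change is the KO spleen level over the control IEL level on a log2 scale, as fitted by edgeR with its own scaling of the libraries, so a positive value is higher in KO spleen cells. A gene is called when its p-value from edgeR's quasi-likelihood test, adjusted over all tested genes, is under 0.05. The labels do not say that replicates came from separate animals, so p-values speak of the spread among these libraries alone, which may be technical in part. The mitochondrial genome gave 0.549% to 0.644% of counts in spleen libraries and 0.259% to 0.286% in IEL libraries, and the 10 top genes took 3.67% to 3.70% and 6.25% to 6.39%.

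Zbtb7a (chromosome 10, 81135220 to 81152995, plus strand, mm10) stood at 61.4, 59.1 and 63.4 CPM in the spleen libraries and at 114, 119 and 101 CPM in the IEL libraries. All KO spleen values lay below all control IEL values (log2 fold change -0.98 with an SE of 0.08, edgeR adjusted p = 4.16e-06), which is the order the genotype labels give. Transcript remained in the KO cells, and the labels do not name the exons that were floxed, so counts from the rest of the gene check the deletion only in part. Of the genes of the gate, Cd8a was at 846, 882 and 786 CPM in spleen and 2487, 2361 and 2675 CPM in IELs, while Cd8b1 was at most 4.51 CPM and Cd4 at most 8.19 CPM in any of the 6 libraries. Cd8b1 and Cd4 were near 0 throughout, which is what the gate asks for, yet both were called higher in spleen (edgeR adjusted p = 3.19e-04 for Cd8b1 and 0.002502 for Cd4). Ptprc, which encodes CD45, was at 3311, 3449 and 3366 against 3273, 3387 and 3043 CPM with overlapping groups and was not called, although it was without IEL replicate 3 (edgeR adjusted p = 0.0405). The 12 markers of CD8aa IELs chosen for the check of the label, such as Itgae and the granzymes, summed to 46521 to 47777 CPM in the IEL libraries and to 2742 to 2818 CPM in the spleen libraries.

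The control IEL libraries were not equally alike. Of the counts on T cell receptor α variable (Trav) segments, Trav7-1 took 28.9% (95% Wilson interval 27.1% to 30.7%) and 27.6% (25.8% to 29.4%) in IEL replicates 1 and 2, on 718 and 680 counts, but 0.163% (0.0746% to 0.355%) in replicate 3, on 6 counts. These intervals cover counting error only. The segment shares of replicates 1 and 2 overlapped by 90.0%, and those of replicate 3 overlapped with them by 52.1% and 51.0%. Among the spleen libraries every pair overlapped by 90.2% to 90.6%. Replicates 1 and 2 therefore resemble each other in segment use as the spleen libraries do, and replicate 3 stands apart from them. With the spleen libraries replicate 3 overlapped by 72.7% to 76.5%, more than with the other IEL libraries, and replicates 1 and 2 by 53.6% to 59.3%. Segments of the β chain (Trbv) gave the same order among IEL libraries, with 96.8% for replicates 1 and 2 against 73.0% and 71.5% with replicate 3. Their overlap with the spleen libraries was 75.0% to 76.9% for IEL replicates 1 and 2 and 68.7% to 71.5% for replicate 3. The spread of segment use inside the IEL group was thus about as wide as the gap between the groups. Replicates 1 and 2 still differed by more than sampling noise over all genes (chi-square over its degrees of freedom 4.30, against 13.0 and 18.2 with replicate 3, and 6.21 to 7.33 among spleen libraries). This ratio cannot tell whether they share an animal or a pool, since separate preparations of the same cells can also exceed sampling noise. The labels do not say, and it was not tested. They were counted as 2 samples. With their counts summed into 1 sample, an alternative chosen after the data were seen, 7779 of the 8660 calls remained in the same direction and none reversed.

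**Figure D1:**
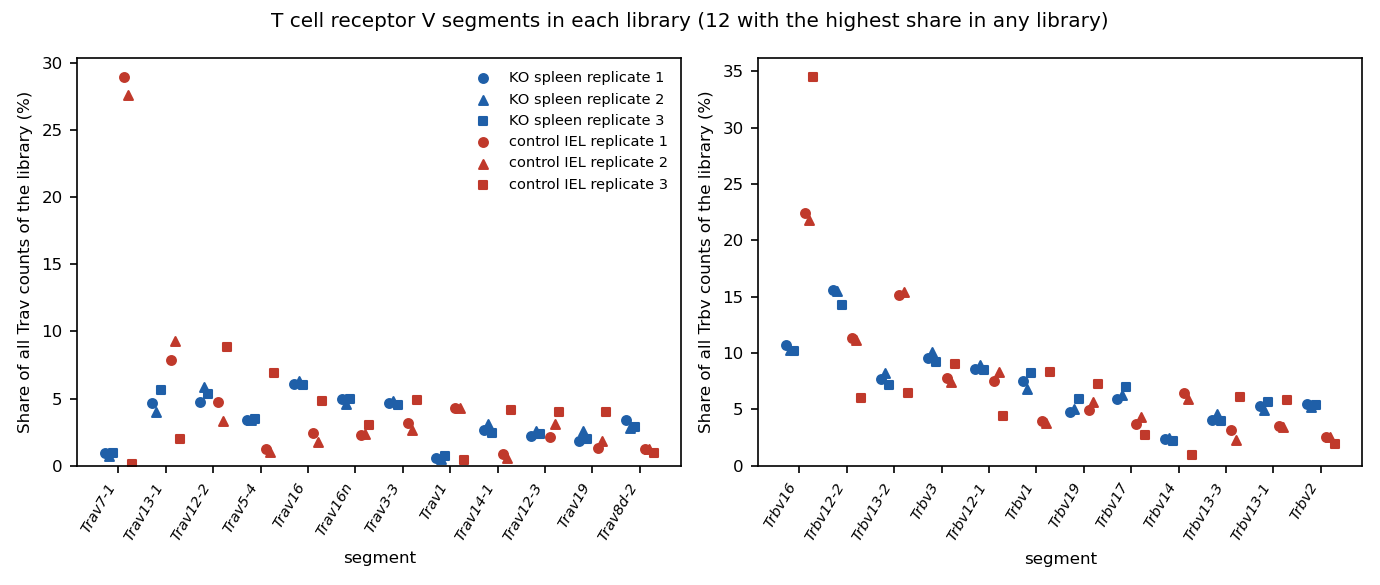
Share of each V segment (vertical axis, % of all Trav or all Trbv counts of the library) for the 12 segments of each chain with the highest share in any library; blue points are KO spleen replicates and red points control IEL replicates, with a marker shape for each replicate. IEL replicates 1 and 2 sit together at 28.9% and 27.6% for Trav7-1 while IEL replicate 3 is at 0.163%.

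Markers of other cells moved with the groups. Of 17 tested B cell markers, 16 were called higher in spleen (29.1% of all tested genes were), where their summed level was 1710 to 1867 CPM, mostly Ighm, against 518 to 723 CPM in IELs. Ms4a1, Fcer2a and Spib were at 0 in every IEL library, and Ms4a1, which encodes CD20, was at 13.7, 11.8 and 12.5 CPM in spleen. Of 10 tested gut epithelial markers, 9 were called lower in spleen (29.2% of all tested genes were), with sums of 12.7 to 19.4 CPM against 157, 156 and 373 CPM in IELs. Replicate 3 of the IELs held the most epithelial transcript, for example Krt8 at 1.35, 1.54 and 22.6 CPM. The other members of this list also stood at low levels except Epcam, at 123, 127 and 189 CPM in IELs. Of 10 tested myeloid markers 6 were higher and 3 lower, with sums of 188 to 200.5 against 369 to 493 CPM. The IEL sum came mostly from the integrin gene Itgax, while the macrophage genes C1qa, C1qb and Adgre1 were at 0 in every IEL library. Plasma cell markers went both ways, with 2 of 6 tested higher and 3 lower. Igha, the constant region of IgA, was at 0, 0 and 0.521 CPM in spleen and 159, 147 and 172 CPM in IELs, Sdc1, a surface marker of plasma cells, was higher in spleen at 7.27, 6.88 and 6.03 against 0.123, 0.322 and 1.79 CPM, and Jchain, which joins secreted antibodies, did not pass the filter. Of 12 erythroid and platelet markers 2 passed the filter, 1 lower and 1 not called, while 7 were higher and 1 lower with no filter. Their sums were 19.8 to 61.3 CPM in spleen and 471 to 627 CPM in IELs, and there nearly all of it was Car2. The platelet gene Ppbp was at 9.63, 14.1 and 0.298 CPM in spleen and 0, 0 and 0 CPM in IELs, so that spleen replicate 3 stood below the other two.

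Lists of other lymphocytes also differed. Of 8 tested markers of conventional CD8ab T cells, 7 were higher and 1, Cd8a, lower, with a median of 3.75 and sums of 3560 to 3636 CPM in spleen against 2571 to 2910 CPM in IELs. Ccr7, Lef1 and Tcf7 belong to this list and to that of recirculation below, whereas Cd8b1, which defines these cells, had the low values given above. Of 12 tested markers of NK and innate lymphoid cells 7 were higher and 3 lower, with sums of 1692 to 1779 against 2762 to 3088 CPM. Most of that sum was Cd3e, which T cells express, and the NK receptor gene Ncr1 was at 0.301, 0.635 and 0.372 against 0, 0 and 0.109 CPM. Eomes and Il7r, described below, and the NK receptor gene Klrb1c, at 66.2, 69.9 and 87.99 against 17.1, 19.4 and 32.6 CPM, were among its higher members. Of 13 tested markers of CD4 and regulatory T cells 4 were higher and 7 lower, of 6 of gamma delta T cells 3 and 3, of 6 of invariant NKT cells 1 and 2, and of 5 of stromal and endothelial cells 2 and 3 (3 and 2 without IEL replicate 3). The part of such cells or of free RNA in the results below was not tested.

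Against this background 4323 genes were higher in KO spleen cells (29.1% of tested genes) and 4337 lower (29.2%), so that 58.2% of all tested genes were called. Of these, 1999 (13.4%) were higher and 1918 (12.9%) lower by at least 2-fold, 938 and 957 by at least 4-fold, and 403 and 377 by at least 16-fold. The median log2 fold change of all tested genes was 0.00. The 3 spleen values lay entirely above or below the 3 IEL values for 66.2% of tested genes. With more than 1 gene in 2 called, a list of genes stands out less by how many members were called than by how one-sided they were and how far they moved. Scaling to total counts, without edgeR's factors, moved the log2 fold changes up by 0.12 in the median, and the share of calls that were higher went from 49.9% to 59.5% (5228 higher and 3553 lower). Changes are given relative to edgeR's scaling.

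**Figure D2:**
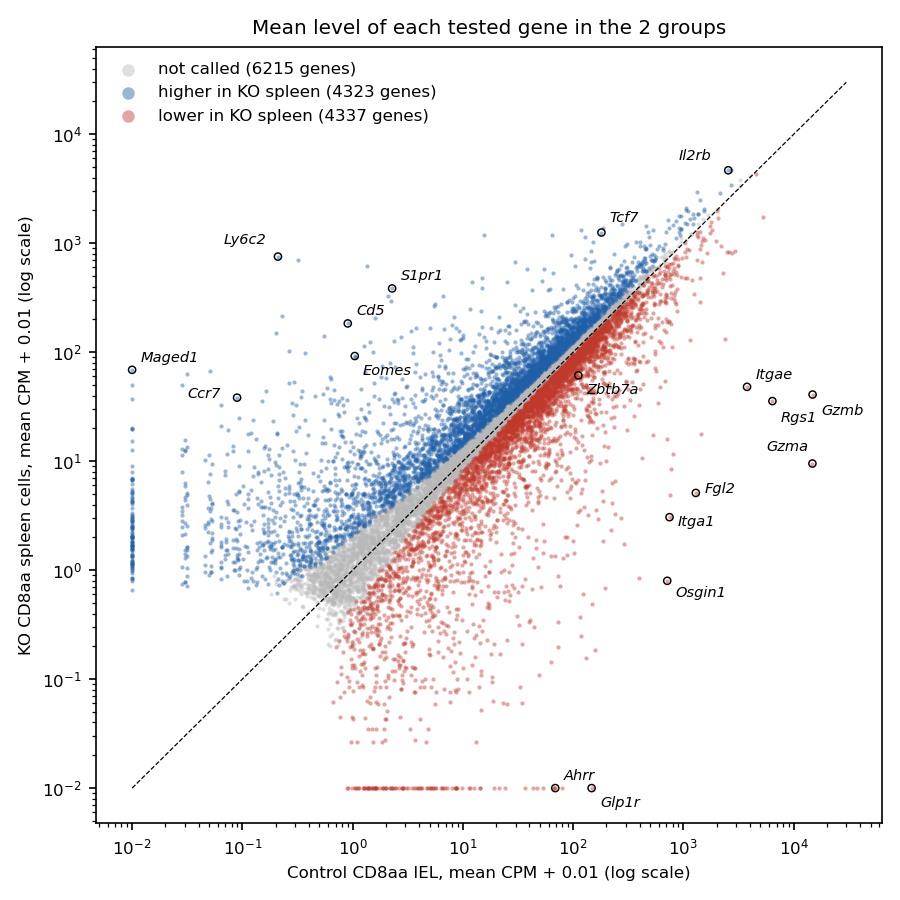
Mean CPM of each tested gene in control IELs (horizontal) and KO spleen cells (vertical), both on log scales after adding 0.01, with some of the genes named in the text circled; the dashed line marks equal levels. The cloud spreads evenly to both sides, with 4323 genes called higher (blue) and 4337 lower (red), and Gzma, Gzmb, Rgs1 and Itgae lie at the right, far below the line.

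**Figure D3:**
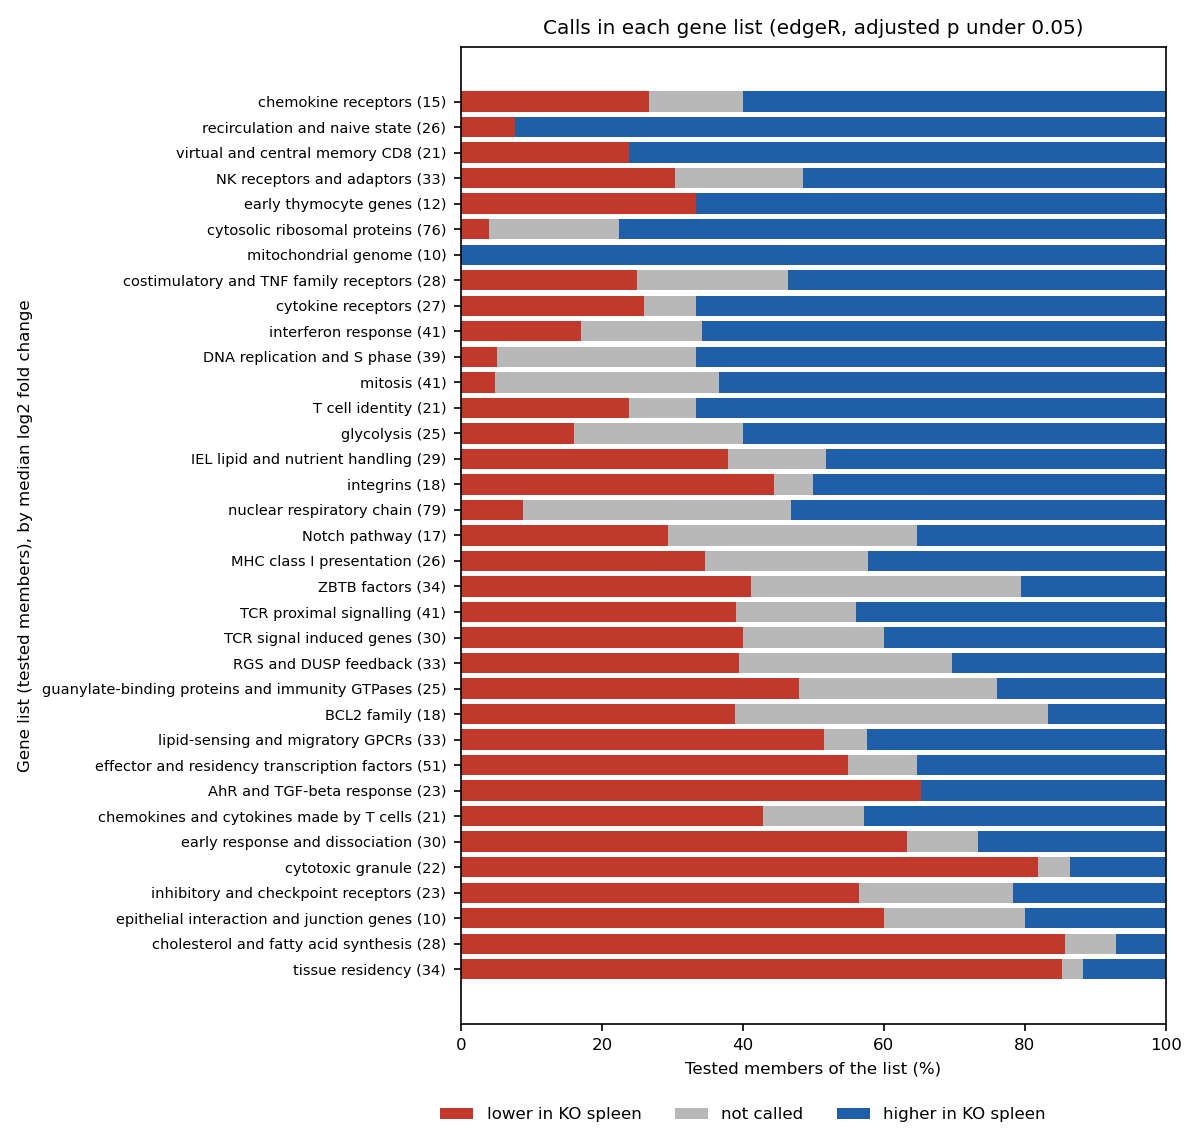
Share of the tested members of each list of gene function with at least 10 tested members that was called lower (red), not called (grey) or higher (blue) in KO spleen cells, with the number tested in brackets and lists ordered by median log2 fold change. Tissue residency and cholesterol synthesis are almost wholly red, and recirculation, ribosomal proteins and the mitochondrial genome almost wholly blue, against 29.2% lower and 29.1% higher over all tested genes.

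Genes of tissue residency were lower in KO spleen cells. Of 34 tested members, 29 were lower, 4 higher and 1 not called, with a median log2 fold change of -2.62. Itgae, the αE chain of the E-cadherin receptor, stood at 52.8, 46.02 and 45.4 CPM in spleen and 3774, 3857 and 3695 CPM in IELs (log2 fold change -6.41 with an SE of 0.08, edgeR adjusted p = 2.86e-11). Cdh1 encodes E-cadherin itself and was at 0.501, 0.688 and 1.34 CPM in spleen and 369, 421 and 400.3 CPM in IELs (log2 fold change -9.08). For both genes the gap between the groups was far wider than the spread inside either group. In bulk samples such as these, fewer cells with a transcript and less transcript per cell cannot be told apart.

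Itga1, whose product pairs with β1 to bind collagen, was at 2.21, 4.87 and 2.08 against 751, 830.4 and 663 CPM (log2 fold change -8.02). Rgs1, a brake on chemokine receptor signals, was at 31.9, 35.4 and 39.5 against 6492, 6544 and 6205 CPM (log2 fold change -7.62 with an SE of 0.08, edgeR adjusted p = 2.24e-11). Prdm1 encodes the transcription factor Blimp-1 and was at 0.752, 0 and 1.27 against 192, 216 and 176 CPM (edgeR adjusted p = 2.33e-08). Spleen cells had almost no Prdm1 or Itga1 transcript and a low but steady level of Rgs1. Changes were smaller for Cd69, which holds S1PR1 off the surface (206, 198 and 190.1 against 441, 434 and 536 CPM, log2 fold change -1.37), for the chemokine receptor gene Cxcr6 (231, 211 and 213 against 316, 310.3 and 360.1 CPM, log2 fold change -0.71), and for Runx3, a factor of killer T cells (151, 166 and 156 against 313, 335 and 278 CPM, log2 fold change -1.09). Cd69 and Cxcr6 were thus well expressed in both groups, with no overlap. The 4 members that went the other way included Zfp683, which encodes the residency factor Hobit, at a mean of 13.4 CPM in spleen and 1.26 CPM in IELs (log2 fold change 3.27 with an SE of 0.26, edgeR adjusted p = 2.77e-06), and Nr4a1, an early target of receptor signals, at 143, 141 and 133 and 72.2, 64.2 and 71.5 CPM (log2 fold change 0.89).

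Genes of recirculation and the naive state went the other way. All 26 tested members were called, 24 higher and 2 lower, with a median of 2.98. S1pr1 was at 383, 388 and 385 CPM in spleen and 2.64, 2.38 and 1.79 CPM in IELs (log2 fold change 7.29 with an SE of 0.11, edgeR adjusted p = 5.81e-11), and Ccr7 at 31.5, 35.5 and 47.8 against 0.184, 0 and 0.0543 CPM (edgeR adjusted p = 3.89e-08). Transcripts of both receptors were low in IELs and clear in every spleen library. The transcription factor genes of the list moved with them: Tcf7 was at 1257, 1279 and 1228 against 185, 172 and 184 CPM (log2 fold change 2.68), Lef1 at 426, 439 and 458 against 11.2, 10.9 and 14.1 CPM (log2 fold change 5.06), and Satb1, a genome organiser, at 389.8, 391 and 380.0 against 15.3, 13.96 and 15.5 CPM (log2 fold change 4.57). Tcf7 kept a sizeable level in IELs, unlike Ccr7. Il7r, the receptor chain for the survival cytokine IL-7, was at 69.4, 72.9 and 79.8 against 7.004, 8.82 and 4.73 CPM (log2 fold change 3.32). The 2 lower members were Btg1 (log2 fold change -0.63) and Slfn2 (log2 fold change -0.57), both genes linked to quiescence.

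**Figure D4:**
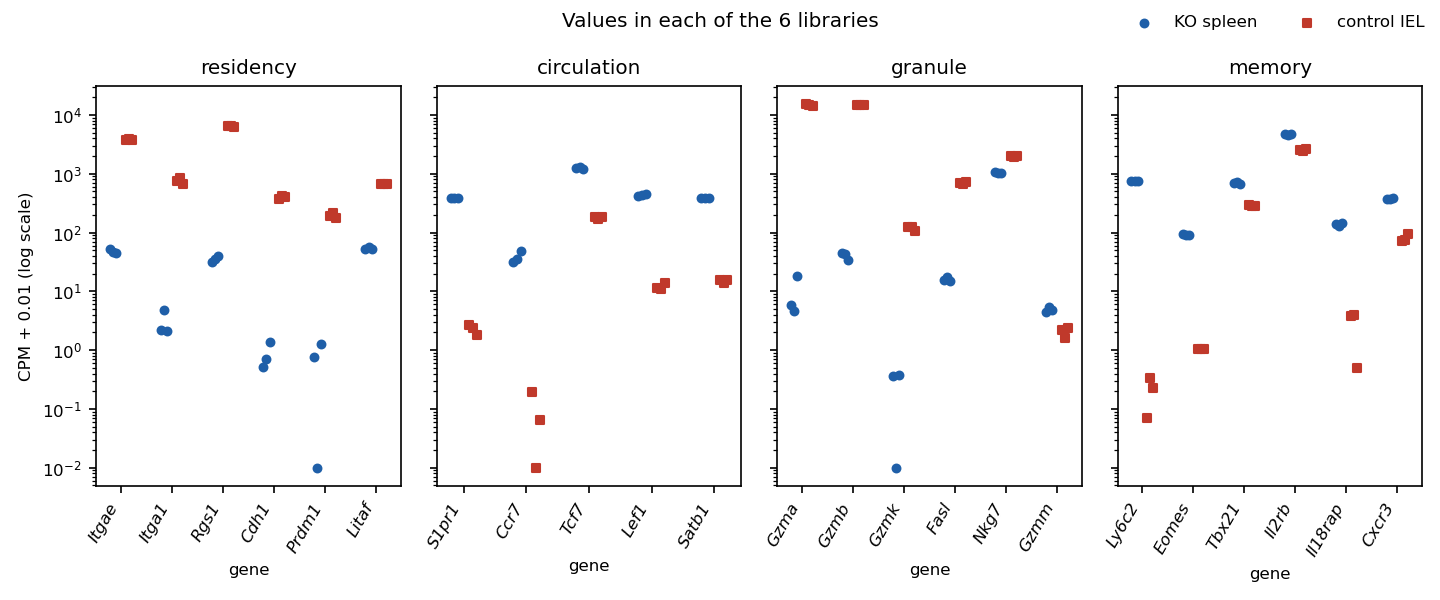
CPM of genes of residency, circulation, granules and memory in each of the 6 libraries (log scale after adding 0.01, so points at the bottom are counts of 0); blue circles are KO spleen replicates and red squares control IEL replicates. Red lies above blue for every residency gene drawn, blue above red for every circulation gene, and only Gzmm breaks the order among the granule genes. Residency and recirculation genes that went the other way, such as Zfp683 and Btg1, are not drawn. The order in those panels thus follows from the choice of genes.

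Integrin and chemokine receptor genes moved in both directions. Of 18 tested integrin genes, 9 were higher and 8 lower, and those of gut attachment were among the lower. Itgb7, the β7 chain shared by αEβ7 and α4β7, was at 429.8, 465 and 483 against 1242, 1222 and 1128 CPM (log2 fold change -1.50 with an SE of 0.06, edgeR adjusted p = 2.46e-08), and Itgax, the αX chain, at 19.4, 18.6 and 20.3 against 342, 343 and 229 CPM (log2 fold change -4.09). Both were lower in spleen with no overlap. Itgal, the αL chain of LFA-1, was instead higher at 1185, 1189 and 1165 against 60.8, 69.7 and 61.7 CPM (log2 fold change 4.08 with an SE of 0.07, edgeR adjusted p = 1.22e-10), as was Itgb1 at 529.8, 493 and 577 against 54.3, 60.3 and 81.2 CPM (log2 fold change 2.91). Of 15 tested chemokine receptor genes, 9 were higher and 4 lower. Ccr9, through which T cells sense CCL25 made by the small intestine, was at 35.9, 40.9 and 41.9 against 265, 263 and 211 CPM (log2 fold change -2.76). Cxcr3, which answers interferon-induced chemokines, was at 369.8, 373 and 388 against 70.5, 75.99 and 94.9 CPM (log2 fold change 2.11), and Cxcr4, a receptor for CXCL12, at 38.6, 32.4 and 35.4 against 0.4301, 0.579 and 1.195 CPM (log2 fold change 5.43).

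Among 33 tested genes of lipid-sensing and migratory receptors, 14 were higher and 17 lower. S1pr3, a second sphingosine receptor gene, was at 0, 1.43 and 0 against 145, 149.9 and 145 CPM, opposite to S1pr1. Ptger4, a prostaglandin E2 receptor, was at 48.8, 43.3 and 50.995 against 633, 673 and 534 CPM (log2 fold change -3.81). Vipr2, which encodes a receptor for vasoactive intestinal peptide, was at 0.1003, 0 and 0.298 against 60.2, 64.9 and 64.4 CPM. The first and the last of these were at or near 0 in every spleen library. Gpr15, a receptor of T cells bound for the colon, was higher at 127, 133 and 148 against 12.1, 14.3 and 3.37 CPM (log2 fold change 3.67), with IEL replicate 3 below the other two. Adgre5, the gene of the adhesion receptor CD97, was at 562, 586 and 597 against 30.5, 28.5 and 55.8 CPM (log2 fold change 3.80).

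Granule genes were lower in KO spleen cells. Of 22 tested genes of the cytotoxic granule list, 18 were lower, 3 higher and 1 not called, with a median of -1.10. Gzma, a granule protease, was at 5.87, 4.55 and 18.1 CPM in spleen and 15251, 15043 and 14064 CPM in IELs (log2 fold change -10.81 with an SE of 0.42, edgeR adjusted p = 1.86e-08; -11.56 without spleen replicate 3). Gzmb, the protease that cuts caspases in target cells, was at 45.8, 42.8 and 34.02 against 14979.8, 14532 and 14996 CPM (log2 fold change -8.62 with an SE of 0.12, edgeR adjusted p = 3.78e-11). These 2 genes took more counts than any other gene in the IEL libraries and almost none in spleen. Fasl, a death ligand, was at 15.9, 17.3 and 14.8 against 709, 682 and 729.5 CPM (log2 fold change -5.58), and Gzmk at 0.351, 0 and 0.372 against 123, 125 and 108 CPM. Shared granule parts differed far less: Nkg7 was at 1068, 1031 and 1027 against 2040.1, 1913 and 1974 CPM (log2 fold change -1.04), the granule proteoglycan gene Srgn at 290.1, 312 and 283 against 617, 596 and 610.1 CPM (log2 fold change -1.16), and Unc13d, needed for granule release, at 241, 241 and 240.2 against 239, 254 and 235 CPM and not called. Gzmm (log2 fold change 1.12) and Crtam, an adhesion receptor of killer cells (log2 fold change 0.72), were among the 3 that were higher. Unc13d overlapped between the groups, and was called only without IEL replicate 3 among the fits that left out 1 library (edgeR adjusted p = 0.0429).

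The 250 bases before the start of Gzmb (RefSeq, GRCm38.p6, chr14:56262335-56262584, minus strand, 5′ to 3′) are shown because this gene differed so widely. Capitals mark an AP-1 match (TGANTCA) and 2 RUNX matches (TGTGGT), searched on both strands:
Gzmb: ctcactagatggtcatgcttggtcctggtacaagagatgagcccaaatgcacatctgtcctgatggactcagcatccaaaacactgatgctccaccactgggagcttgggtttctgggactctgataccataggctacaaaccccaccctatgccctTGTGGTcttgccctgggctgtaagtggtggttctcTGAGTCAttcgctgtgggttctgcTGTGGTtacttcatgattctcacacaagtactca
AP-1 and RUNX factors are known regulators of killer T cell genes. The RUNX letters stood in 13 of 24 promoters found for the granule list, and in 8 of the 17 whose genes were lower, against 14.2% of all 27025 promoters and 11.2% of those of tested genes. Granzyme genes are related copies, so their promoters are not independent. The AP-1 letters stood in 1 of the 24, which is the Gzmb promoter, and in 6.87% of all promoters. A match is a description of letters and not of binding.

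Genes of virtual and central memory CD8 T cells were mostly higher, 16 of 21 tested members against 5 lower, with a median of 1.43. Eomes, a memory transcription factor, was at 94.1, 89.9 and 92.6 CPM in spleen and 1.04, 1.03 and 1.03 CPM in IELs (log2 fold change 6.35 with an SE of 0.12, edgeR adjusted p = 2.16e-10). Ly6c2, a surface marker of memory cells, was at 765, 757 and 740.2 against 0.0614, 0.322 and 0.217 CPM (log2 fold change 11.72 with an SE of 0.15, edgeR adjusted p = 3.32e-11). Both were all but silent in IELs. Il2rb, the receptor chain CD122 for IL-2 and IL-15, was at 4701, 4651 and 4668 against 2585, 2471 and 2594 CPM (log2 fold change 0.75), and Tbx21, the gene of T-bet, at 691, 715 and 677 against 293, 285 and 281 CPM (log2 fold change 1.16). These 2 were high in both tissues and moderately higher in spleen. Cd7, the gene of a surface receptor of T and NK cells, was at 1783, 1724 and 1691 against 5204, 4751 and 5968 CPM (log2 fold change -1.74).

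Cytokine receptors followed a like course, with 18 of 27 tested members higher and 7 lower. Il18r1, a receptor chain for IL-18, was at 19.05, 19.4 and 23.3 against 0.307, 0.643 and 0 CPM (edgeR adjusted p = 1.88e-06), and Il4ra at 329.6, 355 and 480.0 against 196, 196 and 189 CPM (log2 fold change 0.88). Of secreted products, 9 of 21 tested were higher and 9 lower. Ccl5, a chemokine stored by memory T cells, was at 818, 794 and 806 against 2977, 3113 and 2241 CPM (log2 fold change -1.91). Fgl2, a secreted fibrinogen-like protein, was at 3.31, 4.55 and 7.44 against 1234, 1217 and 1435 CPM (log2 fold change -8.16 with an SE of 0.20, edgeR adjusted p = 9.01e-10), and Tgfb3 at 2.51, 4.45 and 4.47 against 122, 122 and 136 CPM (log2 fold change -5.20). Ltb, a ligand for lymphoid tissue organisation, was higher at 767, 753 and 842 against 92.1, 97.2 and 98.8 CPM (log2 fold change 2.91). Ccl5 and Ltb were thus clear in both groups at different levels, and Fgl2 and Tgfb3 were low in every spleen library.

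NK receptor genes moved in both directions, with 17 of 33 tested higher, 10 lower and 6 not called. Of the inhibitory Ly49 genes, Klra9 was at 119, 131 and 128 against 2.703, 1.99 and 2.39 CPM (log2 fold change 5.61) and Klra6 at 215, 203 and 206 against 90.9, 84.9 and 81.8 CPM (log2 fold change 1.15). Klra5 went the other way at 1.905, 1.01 and 5.88 against 139.5, 141 and 220.0 CPM (log2 fold change -6.08, or -6.92 without spleen replicate 3). Reads can be shared between these near-identical genes, so the split among them is uncertain. Klra1 was at 71.7, 72.5 and 74.3 against 9.89, 9.84 and 58.8 CPM and was not called (log2 fold change 1.34 with an SE of 0.55, edgeR adjusted p = 0.06095). Its IEL replicate 3 lay far above replicates 1 and 2, and without it the log2 fold change was 2.77 (edgeR adjusted p = 6.07e-09). Adaptors that pair with activating receptors were lower: Fcer1g was at 238, 226 and 247 against 850.5, 811 and 975 CPM (log2 fold change -2.01) and Tyrobp at 90.5, 86.6 and 81.4 against 339.9, 315 and 418 CPM (log2 fold change -2.17). Cd244, the gene of the receptor 2B4, was at 114, 117 and 106 against 818, 815 and 741 CPM (log2 fold change -2.94). Cd160 was at 671, 663 and 686 against 668, 642 and 729.9 CPM, with overlapping groups, and was not called, although it was without IEL replicate 2 (edgeR adjusted p = 0.0365).

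Of 51 tested transcription factor genes, 18 were higher and 28 lower. Beside Eomes, Tcf7 and Prdm1 above, Smad3, which carries TGF-β signals, was at 190.1, 226 and 222 CPM in spleen and 8.97, 7.53 and 8.53 CPM in IELs (log2 fold change 4.55 with an SE of 0.11, edgeR adjusted p = 6.29e-10). Sox4 was at 70.9, 71.4 and 83.7 against 1.597, 1.93 and 2.01 CPM (log2 fold change 5.22) and Myb at 46.3, 58.6 and 64.1 against 0.676, 0.129 and 1.09 CPM (log2 fold change 6.29, or 6.97 without IEL replicate 3), both factors known from immature lymphocytes. All 3 were higher in spleen in every library. The E protein inhibitors split, with Id2 at 209, 207 and 197 against 491, 443 and 592 CPM (log2 fold change -1.44) and Id3 at 152, 143 and 149 against 12.3, 11.5 and 17.8 CPM (log2 fold change 3.28). Hic1, a factor of gut-resident lymphocytes and itself of the ZBTB family, was at 21.2, 19.96 and 21.1 against 249, 250.3 and 209 CPM (log2 fold change -3.63). Of 34 tested ZBTB genes 7 were higher, 14 lower and 13 not called, with a median of -0.04 that turned positive under scaling to total counts. The 7 higher fell to 4 without IEL replicate 1 or without spleen replicate 2. Zbtb7b, the close relative of Zbtb7a that directs CD4 T cells, was at 1.003, 1.11 and 1.19 against 4.67, 5.598 and 4.62 CPM (log2 fold change -2.29).

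T cell receptor genes were not shifted as a block. Of 41 tested genes of proximal signalling 18 were higher, 16 lower and 7 not called (15 and 16 called with no filter), with a median of -0.05 that also turned positive under that scaling and with IEL replicates 1 and 2 summed. Cd3g was at 558, 528 and 518 against 2283, 2201 and 2388 CPM (log2 fold change -2.22) and Cd3e at 947, 943 and 944 against 2229, 2050.4 and 2294 CPM (log2 fold change -1.33), while Lck, the kinase that starts the signal, was at 2037, 2064 and 2053 against 1991, 1878 and 2314 CPM and not called except without IEL replicate 2 (edgeR adjusted p = 0.0357). Cd3g and Cd3e were thus lower and the kinase overlapped. Cd3d, a further CD3 chain, was instead called slightly higher (log2 fold change 0.19). That call was lost without replicate 1 or 2 of either group, with no filter, or with IEL replicates 1 and 2 summed. Dgka, which ends lipid signals, was at 728, 697 and 739 against 129.9, 129 and 129 CPM (log2 fold change 2.36) and Ubash3a, a negative regulator, at 145, 154 and 169.8 against 3.87, 2.64 and 3.69 CPM (log2 fold change 5.39). Constant region genes of the γ chain were lower, Tcrg-C2 for example at 286, 287 and 291 against 1408, 1387 and 1467 CPM (log2 fold change -2.42). Trdc, the δ constant region, was at a mean of 15.7 against 8.63 CPM, so γ and δ transcripts did not go together, and its call was lost without replicate 1 of either group, without IEL replicate 2 or with IEL replicates 1 and 2 summed.

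Costimulatory receptors of the CD5 and CD28 kind were higher in spleen. Cd5, a brake on receptor signals, was at 183, 189 and 179 CPM in spleen and 0.492, 0.4504 and 1.74 CPM in IELs (log2 fold change 7.49 with an SE of 0.25, edgeR adjusted p = 6.70e-09; 8.47 without IEL replicate 3). Cd28 was at 105, 102 and 103 against 0, 0.708 and 0.0543 CPM (edgeR adjusted p = 2.86e-08), Cd6 at 324, 332 and 331 against 4.67, 4.38 and 10.9 CPM (log2 fold change 5.48, or 6.07 without IEL replicate 3), and Cd2 at 459, 453 and 410.1 against 21.3, 21.8 and 32.1 CPM (log2 fold change 4.01). In all, 15 of 28 tested members were higher and 7 lower. IELs held almost no Cd5 or Cd28 transcript. Of 23 tested checkpoint genes, 13 were lower and 5 higher. Ctla4 was at 0.702, 1.75 and 1.41 against 50.8, 50.4 and 27.9 CPM (log2 fold change -5.19) and Cd200r1 at 71.3, 69.05 and 76.3 against 543, 556 and 573 CPM (log2 fold change -3.07), but Pdcd1, the gene of PD-1, was higher at 173, 152 and 165 against 7.37, 5.92 and 6.79 CPM (log2 fold change 4.48 with an SE of 0.11, edgeR adjusted p = 6.42e-10). Genes that receptor signals induce gave 12 higher, 12 lower and 6 not called of 30, and RGS and DUSP feedback genes 10 higher, 13 lower and 10 not called of 33.

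Early response genes, which also rise when tissue is taken apart, were mostly lower in spleen, 19 of 30 tested against 8 higher. Fos was at 12.2, 10.1 and 12.6 CPM in spleen and 801, 774 and 828 CPM in IELs (log2 fold change -6.23 with an SE of 0.09, edgeR adjusted p = 5.34e-11), Junb at 126, 122 and 151 against 2487, 2420.0 and 2222 CPM (log2 fold change -4.28), and Dusp1, a phosphatase of stress kinases, at 17.6, 19.8 and 15.6 against 1341, 1315 and 1692 CPM (log2 fold change -6.47). All 3 were lower in every spleen library. The preparation of gut epithelium and of spleen differs with the tissue, and its part in these values cannot be told apart from that of the cells. Dusp2 was instead higher at 185, 198 and 199.7 against 36.3, 35.5 and 39.2 CPM (log2 fold change 2.27), as was Nfkbia, an inhibitor of NF-κB, at 249, 260.4 and 251 against 102, 92.3 and 96.05 CPM (log2 fold change 1.27).

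Every one of 23 tested genes of the aryl hydrocarbon receptor (AhR) and TGF-β list was called, 15 lower and 8 higher. The members described below all come from the lower ones. AhR is a sensor of dietary and microbial ligands on which IELs depend. Ahrr, its feedback repressor and target, was at 0, 0 and 0 CPM in spleen and 59.9, 67.3 and 79.1 CPM in IELs. Set against a floor of 3 counts over the spleen group, it was at least 1206-fold lower (edgeR adjusted p = 2.86e-08). Tiparp, a further AhR target, was at 18.1, 11.5 and 12.1 against 198, 195 and 179 CPM (log2 fold change -3.89 with an SE of 0.16, edgeR adjusted p = 2.12e-08). Neither gene overlapped between groups. Tgfbr2, the TGF-β receptor chain, differed less at 276, 265 and 304 against 443, 459 and 363 CPM (log2 fold change -0.70), and Skil, a target that dampens the pathway, was at 47.8, 51.4 and 56.6 against 191, 203 and 163 CPM (log2 fold change -1.96).

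The 250 bases before Ahrr (RefSeq, GRCm38.p6, chr13:74292332-74292581, minus strand) are shown with capitals on the 3 matches to the core of the xenobiotic response element (GCGTG), which AhR is known to bind:
Ahrr: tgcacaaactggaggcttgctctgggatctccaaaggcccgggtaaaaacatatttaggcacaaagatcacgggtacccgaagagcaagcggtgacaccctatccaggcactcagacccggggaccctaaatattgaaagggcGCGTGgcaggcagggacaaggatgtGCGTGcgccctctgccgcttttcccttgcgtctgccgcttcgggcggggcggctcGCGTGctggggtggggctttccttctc
The core is short, and 28.2% of all promoters and 45.2% of those of tested genes held it on either strand. Of the list's lower genes with a promoter found, 5 of 7 held it, and 3 of 6 of its higher genes.

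Cholesterol and fatty acid synthesis genes were lower as a list, 24 of 28 tested members against 2 higher, with a median of -1.98. Sqle, the first oxygen-using step of sterol synthesis, was at 5.46, 3.92 and 6.48 CPM in spleen and 161, 158 and 228 CPM in IELs (log2 fold change -5.25 with an SE of 0.20, edgeR adjusted p = 1.69e-08), and Hmgcs1, an early step, at 88.5, 87.9 and 86.8 against 300.2, 294 and 347 CPM (log2 fold change -1.96 with an SE of 0.08, edgeR adjusted p = 1.85e-08). Srebf2, the transcription factor gene that drives them, was at 136, 129.8 and 148 against 501, 549.6 and 463 CPM (log2 fold change -1.99). All 3 were lower in every spleen library, and IEL replicate 3 had the highest Sqle. The 2 higher members were Fasn, the fatty acid synthase gene (log2 fold change 0.35), and Scd1, a desaturase gene at 6.07, 3.55 and 3.65 against 0.0614, 0 and 0 CPM. Abca1, which carries cholesterol out of the cell, was also higher at 38.1, 35.5 and 34.2 against 0, 0.257 and 0.163 CPM (edgeR adjusted p = 2.09e-08).

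Other lipid genes were divided. Of 29 tested genes of IEL lipid and nutrient handling 14 were higher and 11 lower. Acsbg1, which activates long fatty acids, was at 24.6, 21.1 and 18.8 CPM in spleen and 191, 186 and 180.1 CPM in IELs (log2 fold change -3.22), and Dgat1, which stores them as triglyceride, at 28.02, 31.8 and 24.6 against 198, 198 and 136 CPM (log2 fold change -2.77). Both were lower in spleen with no overlap. Apoe, a lipid carrier, was higher at 12.4, 19.01 and 10.8 against 1.35, 1.22 and 1.36 CPM (log2 fold change 3.30), and Slc2a3, a glucose transporter gene, at 204, 189 and 196 against 137, 129 and 111 CPM (log2 fold change 0.52). Fabp1 and Fabp2, fatty acid carriers of enterocytes that are also on the epithelial marker list, were highest in IEL replicate 3, at 2.33, 1.802 and 12.7 CPM and 3.63, 2.702 and 8.58 CPM in the IEL libraries.

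The promoter of Hmgcs1 (RefSeq, GRCm38.p6, chr13:119690101-119690350, plus strand) held the 1 match to the sterol regulatory element (TCACNCCAC, both strands searched) found in the 19 promoters of this list, and is shown with it in capitals:
Hmgcs1: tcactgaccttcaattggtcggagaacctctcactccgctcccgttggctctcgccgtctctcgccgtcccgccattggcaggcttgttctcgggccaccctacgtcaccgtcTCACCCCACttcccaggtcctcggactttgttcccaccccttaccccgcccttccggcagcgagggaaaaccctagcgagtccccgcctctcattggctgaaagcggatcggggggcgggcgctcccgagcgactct
Of all promoters 1.04% held these letters.

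Genes of growth and energy were mostly higher in spleen. Of 76 ribosomal protein genes tested, 59 were higher and 3 lower, with a median of 1.11, and Rpl4 was at 1060.3, 1016 and 993 CPM in spleen and 391, 407 and 419 CPM in IELs (log2 fold change 1.21). Reads that map to several places are not in the counts, which lowers the values of many ribosomal genes. Such reads were a larger share in the spleen libraries than in the IEL libraries, and their part in these values was not tested. All 10 tested transcripts of the mitochondrial genome were higher, with a median of 1.10, for example mt-Cytb at 1706, 1759 and 1466 against 706, 745 and 732 CPM (log2 fold change 1.06). With any 1 library left out, 8 or 9 members were called higher, and mt-Atp6 was not called. Nuclear genes of the respiratory chain moved less, with 42 of 79 higher, 7 lower (4 without IEL replicate 1 or without spleen replicate 3) and a median of 0.27. Of 25 glycolysis genes, 15 were higher and 4 lower. Pkm, the pyruvate kinase gene, was at 639, 612 and 565 against 378, 369.7 and 417 CPM (log2 fold change 0.52), and Slc16a1, a lactate carrier, at 92.4, 86.4 and 95.1 against 18.9, 21.8 and 27.6 CPM (log2 fold change 1.88). Under scaling to total counts the direction of each of these lists was kept. That scaling moves fold changes up, so it could not turn lists that were already higher and is no check on them.

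Replication and division genes were also higher. Of 39 tested S phase genes 26 were higher and 2 lower (median 0.72), and of 41 mitosis genes 26 were higher and 2 lower (median 0.70; 1 lower without IEL replicate 1, spleen replicate 2 or spleen replicate 3). Mcm3, part of the helicase that opens DNA, was at 232, 228 and 182 CPM in spleen and 75.2, 76.6 and 85.9 CPM in IELs (log2 fold change 1.31 with an SE of 0.10, edgeR adjusted p = 2.77e-06), and Top2a at 91.1, 95.7 and 77.7 against 37.97, 41.1 and 41.1 CPM (log2 fold change 1.02). Both were higher in every spleen library. Mki67, the gene of the cycling marker Ki-67, was at 27.6, 29.1 and 23.97 against 33.7, 36.998 and 21.7 CPM, overlapped and was not called (log2 fold change -0.31 with an SE of 0.18, edgeR adjusted p = 0.172), but it was called lower without IEL replicate 3 (log2 fold change -0.50, edgeR adjusted p = 0.00474). Tubb5, a tubulin gene of the list with uses outside mitosis, was at 393, 372 and 365 against 67.5, 60.6 and 57.9 CPM (log2 fold change 2.48).

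Interferon response genes leaned higher, with 27 of 41 tested higher, 7 lower and a median of 0.75. Slfn5 was at 41.7, 48.5 and 50.1 CPM in spleen and 0.922, 0.322 and 0.489 CPM in IELs (log2 fold change 6.20 with an SE of 0.23, edgeR adjusted p = 1.37e-08). Mx1, which blocks viruses, was at 14.1, 17.2 and 12.7 against 0.307, 0.579 and 0.652 CPM (log2 fold change 4.69), and Usp18, which limits the interferon receptor, at 41.4, 36.6 and 42.96 against 3.44, 3.47 and 4.07 CPM (log2 fold change 3.33). These induced genes were several-fold higher, whereas the signalling gene Stat2 (67.3, 78.6 and 66.03 against 144, 139 and 142 CPM, log2 fold change -1.12) was lower. Irf7 was at 131, 129 and 127 against 127, 127 and 127 CPM and was not called. Of 25 tested guanylate-binding and related GTPases 6 were higher and 12 lower, and of 26 genes of MHC class I presentation 11 were higher and 9 lower, so the higher level was not shared by all genes that interferon can induce. Gbp2 was at 50.3, 55.9 and 48.5 against 117, 116 and 125 CPM (log2 fold change -1.33) and Gbp8 at 121, 116 and 117 against 239.9, 233 and 256 CPM (log2 fold change -1.17). Psme1, a proteasome activator gene, was higher at 439, 428 and 414 against 223, 199.6 and 229.7 CPM (log2 fold change 0.85), and H2-T23, a nonclassical class I gene, lower at 333, 303 and 342 against 541, 533 and 532 CPM (log2 fold change -0.84).

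The promoter of Ifit1 (RefSeq, GRCm38.p6, chr19:34640639-34640888, plus strand) is shown as one with 2 matches to the interferon-stimulated response element (both strands searched), here both on the opposite strand and in capitals. Ifit1, whose product recognises viral RNA, was picked for its promoter after its values were seen and stood at 51.2, 50.1 and 36.1 CPM in spleen and 7.74, 9.65 and 9.02 CPM in IELs (log2 fold change 2.26 with an SE of 0.16):
Ifit1: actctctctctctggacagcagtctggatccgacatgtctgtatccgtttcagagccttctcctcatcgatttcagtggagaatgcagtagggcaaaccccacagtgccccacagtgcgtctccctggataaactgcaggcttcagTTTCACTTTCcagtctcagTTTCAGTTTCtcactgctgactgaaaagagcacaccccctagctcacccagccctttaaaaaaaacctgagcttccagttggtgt
The element stood in 10 of 20 promoters of the list's higher genes, in 2 of 6 of its lower genes and in 3.04% of all promoters. Of all genes called higher 3.64% held it, and of all called lower 2.40%.

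Survival and Notch genes gave no single direction. Of 18 tested BCL2 family genes 3 were higher, 7 lower and 8 not called. Bcl2 itself was at 368, 405 and 397 against 498, 512 and 606 CPM (log2 fold change -0.59), and Bcl2a1d at 3.26, 1.22 and 2.68 against 34.8, 33.2 and 34.99 CPM (log2 fold change -3.97). Of 17 tested Notch genes 6 were higher and 5 lower, with Notch3, a receptor of immature T cells, at 15.8, 12.2 and 13.5 against 0.0614, 0.386 and 0 CPM (edgeR adjusted p = 2.20e-06) and Dtx1, a Notch target, at 168, 189.6 and 205 against 763, 742 and 716 CPM (log2 fold change -2.10). Notch3 and Dtx1 thus moved apart, but they are single members of a list that went both ways. Of 12 tested early thymocyte genes 8 were higher and 4 lower. Themis, needed for T cell selection, was at 143, 134 and 153 against 63.96, 62.9 and 36.995 CPM (log2 fold change 1.27), and Kit, the receptor for stem cell factor, lower at 196, 179 and 241 against 287, 295 and 311 CPM (log2 fold change -0.66). Rag1, Rag2 and Ptcra, which mark thymocytes that still rearrange their receptors, had no count in any of the 6 libraries.

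Several of the largest differences are given here by gene. Osgin1 is also on the residency list and Tnfrsf25 on that of costimulatory receptors, so both are already counted above. Maged1 was at 67.4, 71.7 and 67.5 CPM in spleen and at 0 in all IEL libraries, at least 1155-fold higher by the same floor, and Crhbp, a binding protein for the hormone CRH, was at 54.4, 53.96 and 40.1 CPM and 0, at least 847-fold higher. Igf2, a growth factor, was at 47.6, 45.8 and 55.7 against 0, 0 and 0.0543 CPM, and Tnfrsf25, the receptor DR3, at 62.4, 61.2 and 77.3 against 0.123, 0 and 0 CPM. All 4 were near or at 0 in IELs. In the other direction Glp1r, the receptor for the gut hormone GLP-1, was at 0 in all spleen libraries and at 150.5, 167 and 124 CPM in IELs, at least 2538-fold lower. Spp1, the gene of osteopontin, was at 0 and 80.7, 74.6 and 81.4 CPM, at least 1377-fold lower, and Rasgrf1, an activator of Ras, at 0 and 68.7, 74.2 and 56.2 CPM, at least 1147-fold lower. Osgin1 was at 0.602, 0.424 and 1.34 against 726, 688 and 726 CPM (log2 fold change -10.04 with an SE of 0.17, edgeR adjusted p = 1.22e-10). Each of these 8 genes had edgeR adjusted p-values between 1.22e-10 and 1.03e-07. Leaving out 1 library kept the direction of all 8, which was bound to be so because they were chosen with no overlap between the groups.

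The thymic precursors give the one contrast of the series in which genotype alone differs, and it shares no library with the spleen and gut comparison. Between KO and control IELp 948 genes were higher and 963 lower, 13.1% of 14629 tested. The higher genes numbered 591 without KO replicate 2 and 615 without KO replicate 3, and the lower genes 635 without control replicate 2. Of 13921 genes tested in both contrasts, 8043 were called here, 1839 in IELp and 1403 in both. The shared genes are 17.4% of the calls made here, beside 13.1% of all genes tested in IELp. They are 76.3% of the IELp calls, beside 58.2% of all genes tested here. How much overlap so many calls would give by themselves was not tested. The direction was the same for 863 of the shared genes (475 higher in both, 388 lower in both) and opposite for 540. Of all calls, 49.9% were higher here and 49.6% in IELp. A test of the difference between contrasts over all 12 libraries called 46.7% of 15757 genes, 24.2% higher and 22.5% lower.

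Genes that went the same way in both included Notch3, at 47.2 CPM in KO and 2.99 CPM in control IELp as means of 3 libraries, Igf2 at 20.5 and 1.32 CPM, and Crhbp at 41.004 and 5.404 CPM. Tpm2, a tropomyosin gene, was at 11.4, 10.4 and 13.2 CPM in spleen, 0.123, 0.0643 and 0 CPM in IELs, and 35.9 and 0.588 CPM in KO and control IELp. These 4 were higher in KO cells in both contrasts. Lower in both were Dtx1 (4.44 and 17.5 CPM in IELp), Itgb7 (319 and 620.0 CPM) and Qpct (4.41 and 11.98 CPM; 5.898 in spleen and 71.2 in IELs). For Zbtb7a the difference between contrasts was not called (difference in log2 fold change -0.28, edgeR adjusted p = 0.0879).

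Whole lists also separated. Of the 34 residency genes tested for the difference between contrasts 27 were lower and 4 higher, and of 28 recirculation genes 26 were higher and 1 lower, against 22.5% lower and 24.2% higher over all genes. In KO IELp itself, 11 of 29 tested residency genes were lower and 4 higher (median -0.15), the same lean as here but smaller. Of 27 recirculation genes 12 were lower and 4 higher there (median -0.11), opposite to the lean here. For interferon genes the contrasts had opposite signs, with none of 42 higher and 28 lower in KO IELp (median -0.54), and for mitosis genes none of 41 higher and 27 lower (median -0.38), against 6.48% higher and 6.58% lower over all genes tested in IELp. Ccr9 and Itgae, lower here, were higher in KO than in control IELp (Ccr9 39.1 against 21.2 CPM, Itgae 63.3 against 48.9 CPM), and the difference between contrasts was called for both (edgeR adjusted p = 6.15e-12 and 1.47e-15). S1pr1, higher here, was lower in KO than in control IELp (237 against 276 CPM, edgeR adjusted p of the difference 2.66e-16). Ccr9, Itgae and S1pr1 were called in both contrasts with opposite signs, so a called difference adds little for them.

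**Figure D5:**
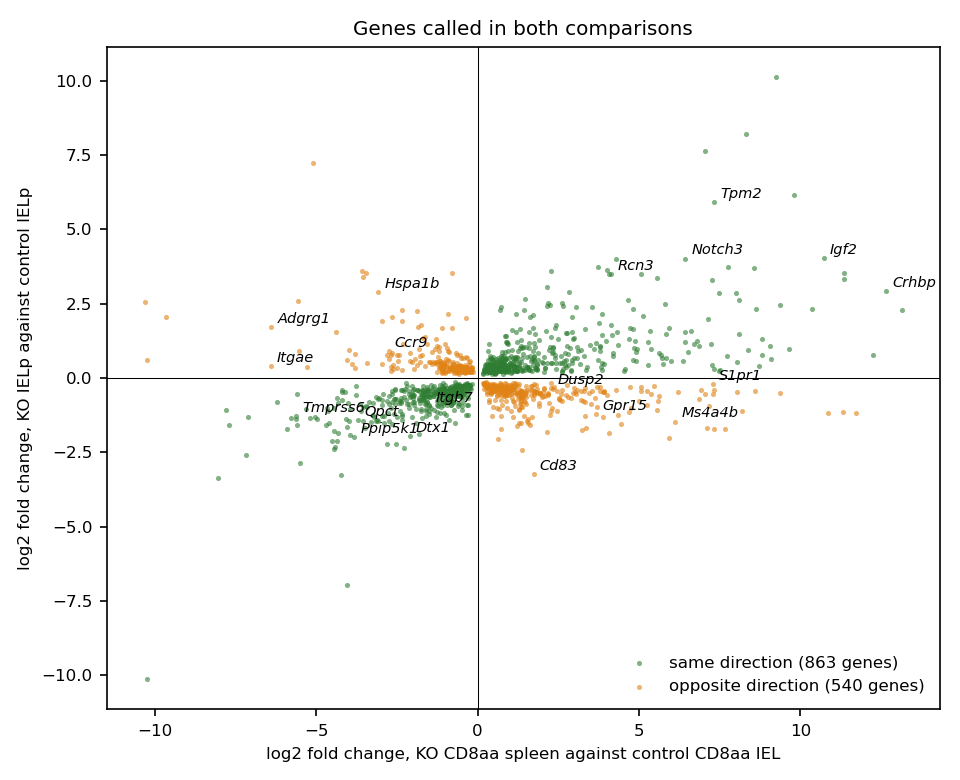
Log2 fold change of KO spleen cells against control IELs (horizontal) and of KO against control IELp (vertical) for the 1403 genes called in both, green where the directions match (863) and orange where they oppose (540). Notch3, Igf2 and Crhbp sit at the upper right, Dtx1, Qpct and Itgb7 at the lower left, and S1pr1, Ccr9 and Itgae in the opposing corners.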

How the data were processed

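RNA was isolated with RNeasy Plus Micro and libraries were made with SMARTer Ultra Low Input and Nextera XT reagents for paired-end sequencing, per the labels' protocols. The deposited table of counts holds whole numbers per gene symbol, and the submitters' processing notes name bcl2fastq 2.17, Trimmomatic, STAR, HTSeq, DESeq2 and the genome build mm10. The sources used here give neither the annotation nor the strand setting of the counting, so overlapping and antisense genes may share reads, and near-identical copies are uncertain. The CPM values that the authors deposited equal their counts over the gene total of each library, and levels are taken on that scale. Of all rows, 42.9% to 43.2% of counts were in no gene in the spleen libraries and 44.4% to 45.5% in the IEL libraries. Those not unique were 16.7% to 17.0% in spleen libraries and 13.1% to 13.7% in IEL libraries. These summary rows were left out.

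Genes were kept by edgeR's filterByExpr, scaled by TMM and tested 2-sided with the quasi-likelihood test (edgeR 4.0.16 in R 4.3.3) on the 6 libraries, with Benjamini-Hochberg adjustment over all tested genes and a threshold of 0.05. The IELp contrast was fitted likewise, and the difference between contrasts as an interaction over 12 libraries. The test was checked on simulated counts. Alternatives used DESeq2 1.42.0, limma 3.58.1 on log2 of the deposited CPM plus 1 or 0.1, other scalings, no filter, a replicate block, all 12 libraries, and each library left out. A gene with no count in one group is given a bound from 3 counts over that group.

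The comparison, the 37 lists of gene function, the 12 marker lists and the rule for named genes were chosen with earlier results of these data known. The rule names Zbtb7a and the gate genes, the 20 largest changes in each direction with at least 10 CPM and no overlap, the 10 top genes of each group, the most abundant and most changed members of each list, all marker genes, and the largest changes shared with or opposed to the IELp contrast. Lists are described by counts and medians beside those of all tested genes, with no set test. Putting genes with no count in one group at their bound changed the median of 1 list, the myeloid markers (3.50 to 2.98). Of the table's symbols 95.5% are in GENCODE mouse release 21, which gave the position of Zbtb7a, and 27 symbols that read as dates are not named. Promoters of 9518 tested genes were found by symbol among 27025 in RefSeq.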

Additional observations from a re-analysis of the deposited data

Results flagged for a closer look

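The results below were picked out because the change from control IELs to KO spleen cells and the change from control to KO IELp were both called, ran in opposite directions, and differed by edgeR's test of the difference over all 12 libraries. That test uses the same libraries as the calls, so small p-values follow from the choice and are no further support. Positive differences mean that the first change was the more positive.

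Higher in KO spleen cells but lower in KO IELp were Ms4a4b, a membrane protein gene of T cells (difference in log2 fold change 7.598, edgeR adjusted p = 1.03e-15), Cd83 (4.97, 1.38e-09), the interferon-induced gene Oas3 (2.98, 1.20e-05), and Il10ra, a chain of the IL-10 receptor (2.89, 1.43e-06). Ms4a4b was at 1183, 1177 and 1196 CPM in KO spleen, 13.1, 15.6 and 17.8 CPM in control IELs, and at means of 59.5 and 167 CPM in KO and control IELp. Lower in KO spleen cells but higher in KO IELp were Adgrg1, the gene of the adhesion receptor GPR56 (-8.10, 4.34e-11), Hspa1b, a heat shock gene (-5.98, 2.06e-07), Tspan9 (-5.95, 1.31e-11), Mcam (-4.63, 7.80e-11) and Cables1 (-3.55, 1.46e-11). Adgrg1 was at 0.752, 1.59 and 0.298 CPM in KO spleen, 71.6, 64.02 and 81.3 CPM in control IELs, and at means of 25.3 and 7.84 CPM in KO and control IELp. Hspa1b was at 25.6, 27.1 and 69.9 CPM in the IEL libraries, with replicate 3 apart from the others, against 5.92, 5.72 and 3.797 CPM in spleen. Cd8a differed too (-3.04, 1.04e-12), but the gates chose CD8aa cells as CD8a+ and IELp as CD8a-, so its value is no finding. Groups of 3 libraries were not tested for single outlying samples.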

How the results depend on the processing

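The 4323 higher and 4337 lower calls stayed within 1.5 times of these counts under each of 14 alternatives and 1 more added after the data were seen, and no call reversed. Scaling by median-of-ratios gave 4317 and 4340, DESeq2 4206 and 4263, no filter 4429 and 4720, and a fit of all 12 libraries 4761 and 4656. Total counts gave 5228 and 3553, and limma 5352 and 3651 or 5285 and 3589 with 1 or 0.1 added. Leaving out each library gave 3871 to 4569 higher and 3854 to 4330 lower. With IEL replicates 1 and 2 summed, the counts were 4016 and 4021. Same-numbered libraries did not deviate together over all genes (correlations -0.0246, 0.00238 and -0.0215). A pairing that touches few genes, or each tissue in another way, would not show in this measure. The replicate block gave 4062 and 4098. Zbtb7a was called lower under all of these.

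Between KO and control IELp, leaving out each library moved the 948 higher genes to between 591 (without KO replicate 2; 615 without KO replicate 3) and 871, and the 963 lower to between 635 (without control replicate 2) and 939; the cause was not tested. DESeq2 gave 1077 and 980 there, median-of-ratios scaling 958 and 952, and the block 760 and 781, with 3773 and 3467 for the difference between contrasts. Of 470 called named genes 440 kept their call under every alternative and 30 did not. Of 1470 counts of list members 1427 stayed within 1.5 times. The majority of calls changed side in 3 of the 49 lists. Proximal signalling went from 18 higher and 16 lower to 15 and 16 with no filter. Erythroid and platelet markers, with 0 and 1 of 2 tested members, had 7 and 1 with no filter, and 5 and 1 without spleen replicate 3, without any 1 IEL library or with IEL replicates 1 and 2 summed, where more members were tested. Stromal and endothelial markers went from 2 and 3 to 3 and 2 without IEL replicate 3. The median changed sign in 5 lists under total counts. Genes with few counts are limited by depth: a count of 0 in a group allows up to 3 counts there.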

Other observations

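A few genes split the 12 libraries by genotype and not by tissue. They were chosen after their values were seen and lie outside the rule for named genes. Of the 1403 genes called in both contrasts, 3 had counts in every KO library and none in any control library. Dchs1, a giant cadherin gene, was at 3.06, 5.51 and 5.36 CPM in KO spleen cells and 10.5, 8.91 and 6.698 CPM in KO IELp. Smarca1, a chromatin remodeller gene, was at 2.91, 1.11 and 3.35 and 1.25, 3.91 and 1.69 CPM, and Shank3, a scaffold gene best known from synapses, at 0.652, 0.741 and 1.71 and 1.65, 1.44 and 1.53 CPM. All 3 were at low levels. In the reverse pattern 1 gene, Capn11, a calpain protease gene, was at 8.85, 12.7 and 4.02 CPM in control IELs and 11.3, 11.1 and 3.98 CPM in control IELp, and at 0 in all 6 KO libraries.

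The control IEL libraries differed among themselves in more than receptor segments. Replicate 3 lay apart from replicates 1 and 2 for the natural killer receptor genes Klra7, at 60.1, 63.4 and 194 CPM, and Klrk1, at 102, 99.8 and 29.4 CPM, and for Il18rap, at 3.81, 3.99 and 0.489 CPM. The β constant region gene Trbc1 was at 258, 258 and 397 CPM and the V segment Trbv16 took 22.5%, 21.8% and 34.5% of Trbv counts in IELs, against 10.2% to 10.8% in spleen.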
